A study of Homo sapiens with 15 samples.

Results

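The genes described here are the replication-dependent core histone genes, the linker histone genes and SLBP, the gene of the stem-loop binding protein. Rows of the expression table whose symbol was H1, H2AC, H2BC, H3C or H4C followed by a number were taken, together with SLBP. This gave 64 of 25503 rows, made up of 6 linker histone, 15 H2A, 16 H2B, 13 H3 and 13 H4 rows and SLBP. RNA was sequenced in 15 libraries of AsPC-1 and Capan-1, which are 2 established lines of human pancreatic ductal adenocarcinoma. AsPC-1 cells were transfected with an siRNA against B4GALT5 (siB4GALT5), an siRNA against B3GNT3 (siB3GNT3) or a control siRNA (siNC), and Capan-1 cells with siB3GNT3 or siNC, with 3 libraries labelled for each of the 5 groups. B4GALT5 is a Golgi galactosyltransferase and B3GNT3 a Golgi N-acetylglucosaminyltransferase. The labels state neither the siRNA sequences, nor the time after transfection, nor whether replicates were separate cultures, so p-values measure the spread between libraries, which may be technical.

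Histones package DNA into nucleosomes, with H2A, H2B, H3 and H4 in the core particle and H1 on the linker DNA. Most core histone genes lie in clusters and are transcribed mainly in S phase. Their mRNAs usually end in a conserved stem-loop in place of a poly(A) tail, and SLBP binds that stem-loop to promote processing, translation and stability of the mRNA. H1-10 stands outside this system, since its gene lies alone and its mRNA is polyadenylated. Some clustered genes can also give polyadenylated transcripts, so the way RNA is selected for a library decides how much histone mRNA is seen. Which selection was used is not stated in the labels.

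B4GALT5 stood at 8.70, 8.49 and 8.03 FPKM (fragments per kilobase of transcript, scaled to mapped fragments) in siB4GALT5 libraries, against 38.7, 35.8 and 35.5 FPKM in AsPC-1 siNC libraries. B3GNT3 stood at 2.53 and 2.50 FPKM in replicates 1 and 2 of AsPC-1 siB3GNT3, against 22.5, 23.8 and 23.3 FPKM in siNC. In Capan-1 it stood at 1.32, 1.67 and 1.84 FPKM in siB3GNT3 libraries, against 13.3, 13.2 and 13.7 FPKM in siNC. The library labelled AsPC-1 siB3GNT3 replicate 3 had 24.2 FPKM of B3GNT3, so its target was not reduced. It was set apart from every mean, fold change and test below, which leaves 14 libraries and 2 in the AsPC-1 siB3GNT3 group, and its values are named as such. Of 7 ductal epithelial markers, 7 averaged at least 1 FPKM in Capan-1 and 5 in AsPC-1, where KRT7 and CDH1 were below. Of 7 markers of other cells found in the table, none reached that level in AsPC-1, while COL1A1, PECAM1 and PDGFRB did in Capan-1. Their summed level there was 75.0 to 81.1 FPKM in siB3GNT3 libraries and 49.0 to 55.4 FPKM in siNC libraries, nearly all of it COL1A1, whereas COL1A2 reached at most 0.195, PTPRC 0.16 and CDH5 0.0124 FPKM in any of the libraries used. COL1A1 rose with siB3GNT3 in Capan-1 by 0.59 (limma adjusted p = 0.000833); its part in the histone changes was not tested. Total read numbers are not given with FPKM, so depth is unknown. The most common ratio between libraries over genes under 0.1 FPKM put the libraries' relative depths between 0.949 and 1.03. Only ratios near 1 were searched, so a larger difference in depth could not have been found. The most common ratio held 14.5% to 18.2% of the genes compared.

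The element that SLBP binds was looked for first, because it is the sequence these genes share. In GENCODE 29 transcripts on GRCh38, the letters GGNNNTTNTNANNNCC were searched on the sense strand in the first 100 bases after the stop codon. They were found in 26 of the 28 core histone genes with an annotated sequence long enough there, and in 38 of 19064 other coding genes, or 0.199%. Of the 64 genes, 60 were matched to that annotation. There were 6 distinct stem-loops. The sites of 7 genes described below are shown with 5 bases on either side, 5′ to 3′, with the stem-loop in capitals:
H2AC6: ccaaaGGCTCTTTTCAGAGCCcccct
H2BC5: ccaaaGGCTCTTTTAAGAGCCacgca
H2BC8: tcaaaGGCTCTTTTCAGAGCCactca
H3C10: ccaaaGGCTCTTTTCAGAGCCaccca
H3C6: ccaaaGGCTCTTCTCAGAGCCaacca
H4C8: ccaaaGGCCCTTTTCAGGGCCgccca
H4C5: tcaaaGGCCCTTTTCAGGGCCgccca
They lie on chromosome 6 at chr6:26124664-26124689 for H2AC6 (plus strand), chr6:26158582-26158607 for H2BC5 (plus), chr6:26216213-26216238 for H2BC8 (minus), chr6:27810511-27810536 for H3C10 (plus), chr6:26225591-26225616 for H3C6 (plus), chr6:26285126-26285151 for H4C8 (minus) and chr6:26204996-26205021 for H4C5 (plus). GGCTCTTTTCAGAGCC was the most common form and was shared by H2A, H2B and H3 genes. The 7 H4 genes with a match carried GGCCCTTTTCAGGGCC or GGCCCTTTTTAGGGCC, which no other family did, and H2BC4, H2BC5, H2BC7 and H3C8 carried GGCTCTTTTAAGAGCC. In 20 of the 26 genes an annotated transcript ran more than 100 bases past the stem-loop, so that a form without a stem-loop end is also annotated. The FPKM table has 1 value per gene and cannot separate the forms.

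By RefSeq on GRCh38.p14, 51 of the genes lie between chr6:26020451-27893891 and 11 between chr1:149782689-149887965. H1-10 is on chromosome 3 and SLBP at chr4:1692731-1712319. The octamer ATTTGCAT, an element of H2B promoters, was searched on both strands from 250 bases before to 50 after each gene's start. It was in 13 of 16 H2B, 10 of 14 H2A, 1 of 11 H3, 0 of 11 H4 and 0 of 6 linker histone promoters, and in 468 of 27246 other promoters, or 1.72%. Windows of 4 H2B genes that differed in response are shown 5′ to 3′ on the gene's own strand, which is minus for all 4, with the octamer in capitals:
H2BC12: ttcaccttATTTGCATgagaggtc
H2BC11: ttcaccttATTTGCATaagcgatt
H2BC8: aattctttATTTGCATgaaaggcc
H2BC21: gagccctaATTTGCATaaggtggt
These windows are at chr6:27146889-27146912, chr6:27132827-27132850, chr6:26216721-26216744 and chr1:149886713-149886736, in that order of genes.

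Most of the 64 genes were low. In at least 1 of the 14 libraries 40 reached 1 FPKM, 33 did so in 3 or more, and 13 in all 14. None was listed at 0 throughout, and 22 averaged at least 5 FPKM in some group. A mean of at least 1 FPKM was reached by 28 genes in AsPC-1 siB4GALT5, 28 in AsPC-1 siB3GNT3 and 18 in AsPC-1 siNC, and by 32 in Capan-1 siB3GNT3 and 26 in Capan-1 siNC. Near-identical copies share reads: every 50-base stretch of the H3C14, H3C15, H4C12 and H4C14 transcripts occurs in another of these genes, as does 83.7% of H2AC14, 81.2% of H4C11 and 62.3% of H2AC13. Of the genes given in full below, H2BC12 shares 22.6% and the others under 8%. H2BC12 also overlaps H4C9, and H3C4 overlaps H2AC7, so their reads cannot be told apart where the genes overlap. H2BC5 overlaps H2BC6-AS1 and LARP1P1, H2BC18 overlaps FCGR1A and LOC124904411, and H4C15 overlaps H2AC19, H2BC20P and H3C15. Reads may be shared there too.

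SLBP fell in all 3 knockdowns, and every histone gene that passed the test rose. Nearly all tested histone genes did so in Capan-1, and about as many did as did not with siB4GALT5 in AsPC-1. In AsPC-1, 27 of the 64 genes passed the filter of 1 FPKM in 3 libraries. Of these 14 rose and 1 fell with siB4GALT5, and 18 rose and 1 fell with siB3GNT3. In Capan-1, 31 passed, 29 rose and 1 fell. The gene that fell was SLBP each time. A gene is said to rise or fall where limma on log2(FPKM + 1) gave a Benjamini-Hochberg adjusted p under 0.05 over all genes tested. The background was high: with siB4GALT5 in AsPC-1, 58.2% of tested genes were called, 35.2% as higher and 23% as lower. With siB3GNT3 in AsPC-1 it was 52.9%, with 32.5% higher and 20.4% lower, and in Capan-1 32.9%, with 18.7% higher and 14.2% lower. The median log2 fold change over the tested members other than SLBP was 0.57 for siB4GALT5, 0.905 for siB3GNT3 in AsPC-1 and 1.145 for siB3GNT3 in Capan-1, against 0.06, 0.07 and 0.02 over all tested genes. The share of higher calls among all calls depends on scaling: it was 60.5%, 61.5% and 56.8% in these comparisons as deposited, 49.1%, 46.7% and 46.1% after median-ratio scaling, and 70.9%, 72.2% and 63.6% after scaling to a common sum. No histone gene given in full below changed direction under either scaling. With the library labelled AsPC-1 siB3GNT3 replicate 3 kept in its group, 0 members (and 0 of all genes) were called by limma with siB3GNT3 in AsPC-1, 13 of the 27 having an unadjusted p under 0.05, and 7 were called with siB4GALT5, so every AsPC-1 siB3GNT3 call below holds only with it set apart.

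The filter admits a gene that is high in the knockdown only. With no siNC library at 1 FPKM, 5 genes (H2AC20, H2BC18, H3C4, H4C4 and H4C5) entered the AsPC-1 fit and 2 (H2AC15 and H4C4) the Capan-1 fit, so these entered only through their knockdown libraries, where they are high, and their calls are fixed in part by the filter. They made up 4 of the 14 rises with siB4GALT5 (H2AC20, H2BC18, H4C4 and H4C5), 4 of the 18 with siB3GNT3 in AsPC-1 (H2AC20, H2BC18, H3C4 and H4C5) and 2 of the 29 in Capan-1. Without them 10 of 21 histone genes rose with siB4GALT5, 14 of 21 with siB3GNT3 in AsPC-1 and 27 of 28 in Capan-1, that is 47.6%, 66.7% and 96.4%, and the medians were 0.50, 0.96 and 1.17. These counts still hold genes with only 1 or 2 siNC libraries at 1 FPKM, which also needed knockdown libraries to pass. Among the genes called, they include H2AC8 and H3C6 in AsPC-1, and H1-3 and H2BC9 in Capan-1. The remaining counts and these calls are therefore not free of the filter. Without any filter, the mean was higher than in siNC for 52 of the 63 histone genes with siB4GALT5, 54 with siB3GNT3 in AsPC-1 and 51 with siB3GNT3 in Capan-1, and lower for 6, 3 and 8. Over all 25503 rows it was higher for 12113, 11929 and 12500 and lower for 8910, 8671 and 9973. All knockdown libraries lay above all siNC libraries for 25, 34 and 33 of the 63, that is 39.7%, 54% and 52.4%, against 20.5%, 26.3% and 16.5% of all table rows.

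SLBP had 29.9, 29.9 and 32.1 FPKM in siB4GALT5 and 27.3 and 25.9 FPKM in siB3GNT3 libraries, against 39.3, 37.7 and 41.9 FPKM in siNC libraries of AsPC-1. In Capan-1, SLBP had 8.61, 9.13 and 14.5 FPKM in siB3GNT3 libraries, against 44.4, 42.4 and 44.7 FPKM in siNC libraries. No knockdown library overlapped its controls. The library labelled AsPC-1 siB3GNT3 replicate 3 had 40.6 FPKM, within the range of siNC. On the log2 scale SLBP fell by 0.36 with siB4GALT5 (SE 0.06, limma adjusted p = 0.000587). With replicate 3 of siB3GNT3 kept, this call was lost (adjusted p = 0.0783), as were the siB4GALT5 calls of H2BC5 (0.0924), H2BC8 (0.0513), H2BC4 (0.0698), H2BC21 (0.337) and H2AC8 (0.0609). SLBP fell by 0.56 with siB3GNT3 in AsPC-1 (SE 0.06, limma adjusted p = 0.000106) and by 1.97 in Capan-1 (SE 0.16, limma adjusted p = 0.000214). As a ratio of means, SLBP was at 0.772 and 0.671 of siNC in the AsPC-1 knockdowns and at 0.245 in Capan-1. In bulk RNA, fewer cells with a transcript and less transcript per cell cannot be told apart.

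**Figure D1:**
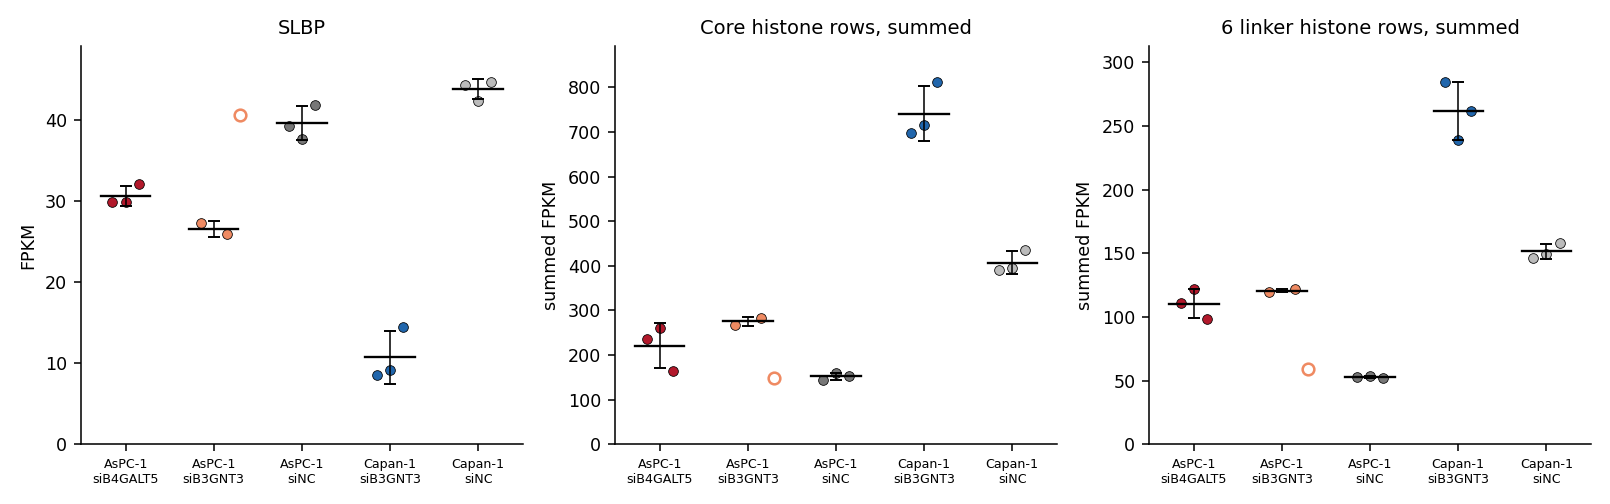
FPKM of SLBP, and FPKM summed over the 57 core histone rows and over the 6 linker histone rows, in each library of the 5 groups. Points are libraries, lines are group means and bars SDs; the open circle, outside the mean, is the library labelled AsPC-1 siB3GNT3 replicate 3. SLBP is lower in every knockdown library than in its siNC libraries, while both sums are higher.

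Summed over all 57 H2A, H2B, H3 and H4 rows, core histone signal was 237, 261 and 165 FPKM in siB4GALT5 and 268 and 283 FPKM in siB3GNT3, against 144, 159 and 154 FPKM in siNC libraries of AsPC-1. In Capan-1 the sum was 698, 715 and 812 FPKM in siB3GNT3, against 390, 395 and 436 FPKM in siNC. Every knockdown library was above its controls, siB4GALT5 replicate 3 by the least. The ratios of group means were 1.45, 1.81 and 1.82. The library labelled AsPC-1 siB3GNT3 replicate 3 had 149 FPKM. A single gene, H2BC12, made up 65.1% ± 1.16 of this sum in AsPC-1 siNC and 64.2% ± 1.17 in Capan-1 siNC (SD, n = 3 each). Its share was 54.5% ± 1.56 with siB4GALT5 (SD, n = 3), 47.0% ± 0.778 with siB3GNT3 in AsPC-1 (SD, n = 2) and 51.8% ± 5.78 with siB3GNT3 in Capan-1 (SD, n = 3). Without H2BC12 the ratios were 1.88, 2.75 and 2.44. These sums were not tested.

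Of the linker histone genes, both that were tested in AsPC-1 rose with each knockdown, and all of the 4 tested in Capan-1 rose. Over all tested genes 35.2% rose with siB4GALT5, 32.5% with siB3GNT3 in AsPC-1 and 18.7% in Capan-1. The other linker rows were below the filter. Summed over the 6 linker rows, their signal was 111, 122 and 98.8 FPKM in siB4GALT5 and 120 and 122 FPKM in siB3GNT3, against 53.1, 53.7 and 52.1 FPKM in siNC libraries of AsPC-1. In Capan-1 the sum was 284, 239 and 262 FPKM in siB3GNT3, against 146, 150 and 158 FPKM in siNC. Every knockdown library lay above its controls, and the library labelled AsPC-1 siB3GNT3 replicate 3 had 59.1 FPKM. The ratios of group means were 2.09, 2.28 and 1.73. These sums were not tested.

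H1-10, a linker variant encoded outside the clusters, had 64.9, 71.6 and 68.1 FPKM in siB4GALT5 and 69.5 and 71.9 FPKM in siB3GNT3, against 35.4, 35.5 and 36.5 FPKM in siNC libraries of AsPC-1. In Capan-1, H1-10 had 49.9, 42.4 and 53.5 FPKM in siB3GNT3, against 28.5, 28.9 and 25.5 FPKM in siNC. No libraries overlapped, and H1-10 rose by 0.91 with siB4GALT5 (SE 0.05), 0.96 with siB3GNT3 in AsPC-1 (SE 0.06) and 0.79 in Capan-1 (SE 0.10), with limma adjusted p of 1.06e-06, 2.4e-06 and 0.000957. H1-10 overlaps an antisense gene, H1-10-AS1, and the labels do not state whether counting used strand. H1-2, a clustered linker histone, had 42.7, 47.7 and 27.9 FPKM in siB4GALT5 and 47.7 and 47.4 FPKM in siB3GNT3, against 17.4, 17.5 and 15.3 FPKM in siNC libraries of AsPC-1. In Capan-1, H1-2 had 213, 179 and 202 FPKM in siB3GNT3, against 115, 118 and 130 FPKM in siNC. H1-2 rose by 1.16 with siB4GALT5 (SE 0.16, limma adjusted p = 0.000257), 1.45 with siB3GNT3 in AsPC-1 (SE 0.18, adjusted p = 0.000158) and 0.71 in Capan-1 (SE 0.08, adjusted p = 0.000813).

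H1-4, another clustered linker histone, had 11.3, 10.8 and 4.14 FPKM in Capan-1 siB3GNT3, against 1.82, 2.18 and 2.53 FPKM in siNC, and rose by 1.52 (SE 0.30, limma adjusted p = 0.0074). In AsPC-1, where it was below the filter, H1-4 ranged from 0.772 to 1.65 FPKM in siB4GALT5 and stood at 0.963 and 0.861 FPKM in siB3GNT3, against 0.0321 to 0.423 FPKM in siNC. H1-3 rose in Capan-1 by 2.04 (SE 0.37, limma adjusted p = 0.00547), with 9.97, 6.25 and 2.52 FPKM in siB3GNT3, against 1.05, 0.584 and 0.227 FPKM in siNC. For H1-3 and H1-4 the lowest Capan-1 knockdown value was that of replicate 3, the library with the most SLBP in its group. The core histone sum of that library was the highest of its group only with H2BC12 included. Without H2BC12 it was 347 FPKM, against 379 and 340 FPKM in replicates 1 and 2. The part of this library in these results was not tested. H1-5 and H1-6 did not pass the filter in either line.

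**Figure D2:**
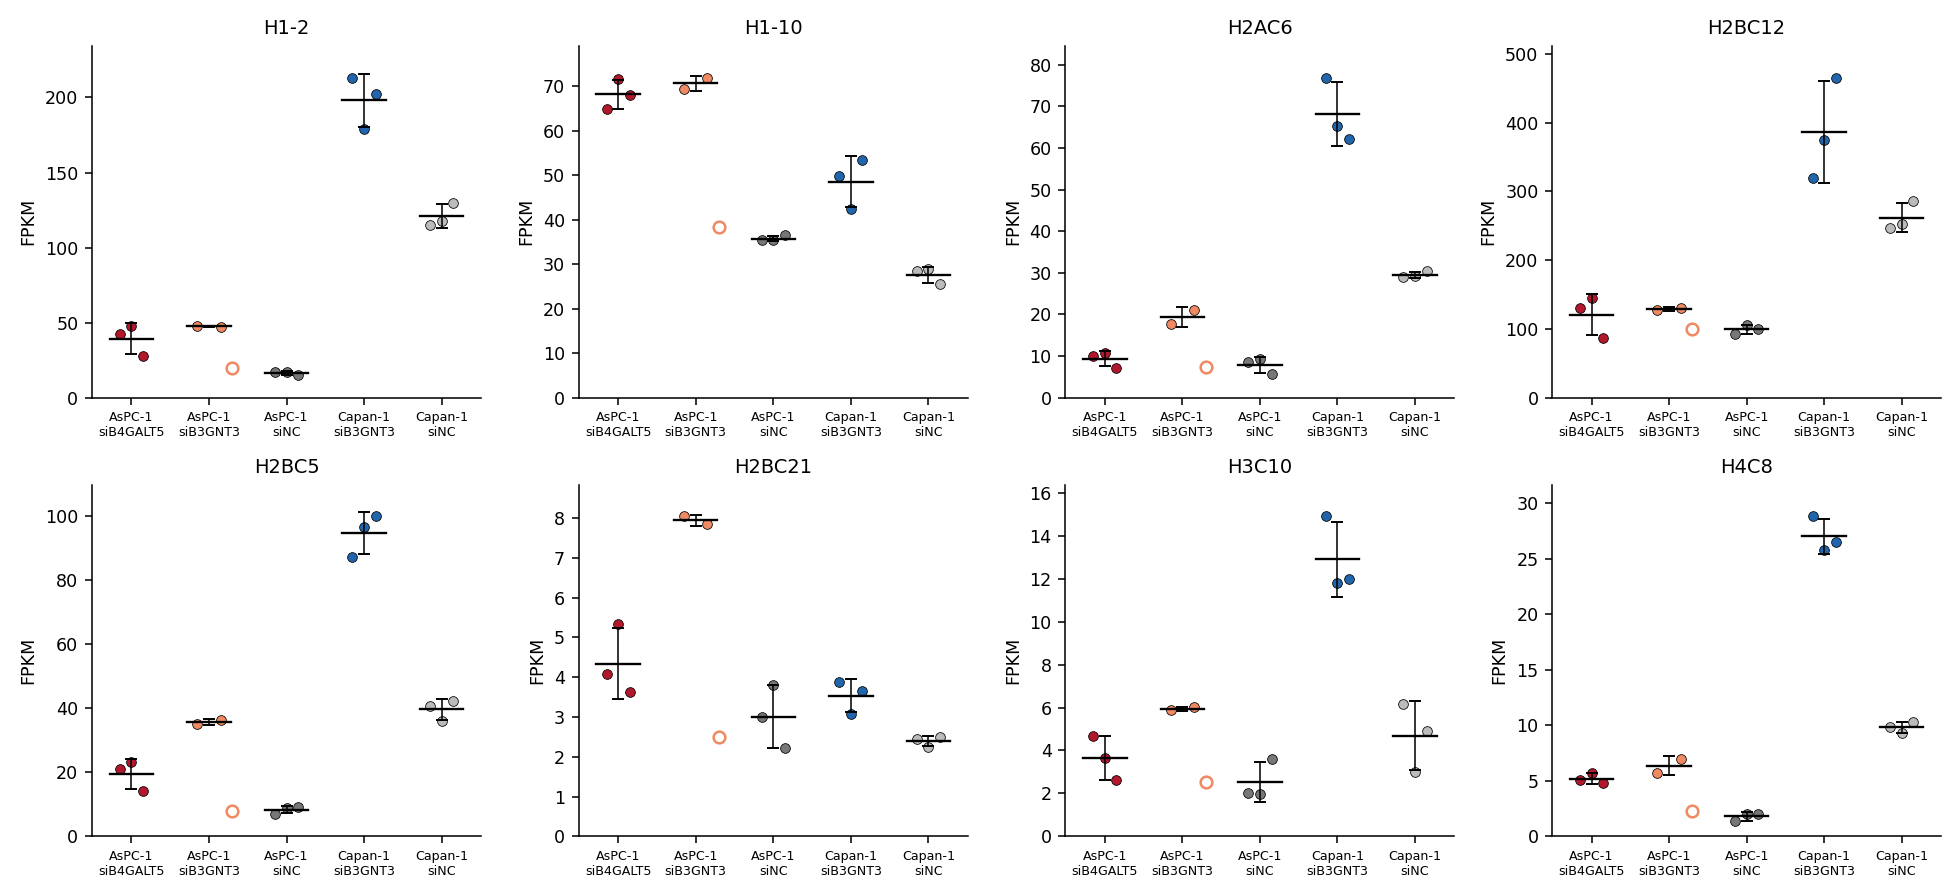
FPKM of 8 histone genes in each library of the 5 groups, each panel with its own axis from 0. Points are libraries, lines are group means and bars SDs, and the open circle is the library labelled AsPC-1 siB3GNT3 replicate 3. H1-10 and H4C8 are separated from siNC in every knockdown, whereas H2AC6, H2BC12, H2BC21 and H3C10 with siB4GALT5 overlap AsPC-1 siNC.

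Among H2A genes, 2 of 6 tested rose with siB4GALT5, 3 of 6 with siB3GNT3 in AsPC-1 and 5 of 6 with siB3GNT3 in Capan-1. Over all tested genes 35.2%, 32.5% and 18.7% were called higher, so the siB4GALT5 share was near that of all genes. These rises include H2AC20 in AsPC-1 and H2AC15 in Capan-1, which entered the fits only through knockdown libraries. In Capan-1, H2AC17 was the 1 histone gene tested that was not called. H2AC6, the most abundant H2A gene, had 10.1, 10.8 and 7.27 FPKM in siB4GALT5 and 17.6 and 21 FPKM in siB3GNT3, against 8.70, 9.23 and 5.73 FPKM in siNC libraries of AsPC-1. In Capan-1, H2AC6 had 76.8, 65.3 and 62.2 FPKM in siB3GNT3, against 29, 29.3 and 30.4 FPKM in siNC. The siB4GALT5 libraries overlapped siNC, and the log2 fold change was 0.23 (SE 0.18, limma adjusted p = 0.283), or 0.39 without siB4GALT5 replicate 3 (adjusted p = 0.0451). H2AC6 rose by 1.21 with siB3GNT3 in AsPC-1 (SE 0.20, limma adjusted p = 0.000755) and by 1.17 in Capan-1 (SE 0.08, adjusted p = 0.000125).

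H2AC8 had 3.17, 6.96 and 3.23 FPKM in siB4GALT5 and 7.33 and 6.55 FPKM in siB3GNT3, against 1.42, 0.694 and 1.46 FPKM in siNC libraries of AsPC-1. In Capan-1, H2AC8 had 4.92, 4.86 and 3.88 FPKM in siB3GNT3, against 2.18, 2.44 and 2.04 FPKM in siNC. It rose by 1.27 with siB4GALT5 (SE 0.24), 1.88 with siB3GNT3 in AsPC-1 (SE 0.27) and 0.78 in Capan-1 (SE 0.10), with limma adjusted p of 0.00162, 0.000383 and 0.00123. H2AC11 had 1.53, 3.91 and 2.11 FPKM in siB4GALT5 and 3.43 and 1.90 FPKM in siB3GNT3, against 1.54, 2.55 and 0.921 FPKM in siNC libraries of AsPC-1, and was not called there (limma adjusted p = 0.267 and 0.236). In Capan-1, H2AC11 had 11.6, 9.79 and 11.7 FPKM in siB3GNT3, against 2.91, 5.21 and 3.22 FPKM in siNC, and rose by 1.36 (SE 0.17, limma adjusted p = 0.001).

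H2B genes gave most of the core histone signal. Of 10 tested, 6 rose with siB4GALT5 and 8 with siB3GNT3 in AsPC-1, and 10 of 10 rose with siB3GNT3 in Capan-1. Over all tested genes 35.2%, 32.5% and 18.7% rose in these comparisons. Both AsPC-1 counts include H2BC18, which entered that fit only through knockdown libraries. H2BC12, the most abundant core histone gene, had 131, 145 and 87.0 FPKM in siB4GALT5 and 127 and 131 FPKM in siB3GNT3, against 92.3, 106 and 100 FPKM in siNC libraries of AsPC-1. In Capan-1, H2BC12 had 319, 375 and 465 FPKM in siB3GNT3, against 247, 252 and 286 FPKM in siNC. In AsPC-1 neither knockdown passed the test, with log2 fold changes of 0.25 for siB4GALT5 (SE 0.16, limma adjusted p = 0.191) and 0.38 for siB3GNT3 (SE 0.17, adjusted p = 0.0924). Without siB4GALT5 replicate 3, the 1 library below siNC, they were 0.47 (limma adjusted p = 6.82e-05) and 0.38 (adjusted p = 0.000325). The siB3GNT3 change was also called after scaling to a common sum (0.47, adjusted p = 0.0347) and in a fit of siB3GNT3 and siNC libraries alone (adjusted p = 0.000325). In Capan-1 H2BC12 rose by 0.55 (SE 0.13, limma adjusted p = 0.0141), a call lost without siNC replicate 1 (adjusted p = 0.0598) or replicate 2 (adjusted p = 0.0581), or with no filter (adjusted p = 0.0688).

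H2BC5 had 20.9, 23.2 and 14.3 FPKM in siB4GALT5 and 35.1 and 36.3 FPKM in siB3GNT3, against 7.05, 8.93 and 9.17 FPKM in siNC libraries of AsPC-1. In Capan-1, H2BC5 had 87.4, 96.8 and 100 FPKM in siB3GNT3, against 40.8, 36.0 and 42.2 FPKM in siNC. No libraries overlapped, and H2BC5 rose by 1.11 with siB4GALT5 (SE 0.16, limma adjusted p = 0.000283), 1.98 with siB3GNT3 in AsPC-1 (SE 0.18, adjusted p = 2.18e-05) and 1.24 in Capan-1 (SE 0.08, adjusted p = 9.83e-05). H2BC8 had 5.27, 7.0 and 4.56 FPKM in siB4GALT5 and 7.75 and 8.58 FPKM in siB3GNT3, against 2.02, 2.51 and 2.89 FPKM in siNC libraries of AsPC-1. In Capan-1, H2BC8 had 13.6, 17.8 and 18.9 FPKM in siB3GNT3, against 5.49, 7.21 and 8.03 FPKM in siNC. H2BC8 rose by 0.92 with siB4GALT5 (SE 0.14, limma adjusted p = 0.000389), 1.41 with siB3GNT3 in AsPC-1 (SE 0.15, adjusted p = 7.33e-05) and 1.17 in Capan-1 (SE 0.15, adjusted p = 0.00123).

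H2BC11 had 5.15, 6.48 and 3.80 FPKM in siB4GALT5 and 6.42 and 6.90 FPKM in siB3GNT3, against 4.28, 3.90 and 3.99 FPKM in siNC libraries of AsPC-1. In Capan-1, H2BC11 had 39.9, 33.2 and 27.4 FPKM in siB3GNT3, against 14.6, 13.9 and 15.7 FPKM in siNC. It rose by 1.12 in Capan-1 (SE 0.13, limma adjusted p = 0.000675) and by 0.60 with siB3GNT3 in AsPC-1 (SE 0.15, adjusted p = 0.00888), the second call being lost without siB3GNT3 replicate 2 (adjusted p = 0.0646). With siB4GALT5 the log2 fold change was 0.26 (SE 0.14, limma adjusted p = 0.132), and 0.42 without siB4GALT5 replicate 3 (adjusted p = 0.00178). H2BC15 had 6.24, 6.22 and 5.05 FPKM in siB4GALT5 and 6.06 and 5.10 FPKM in siB3GNT3, against 1.78, 1.51 and 2.37 FPKM in siNC libraries of AsPC-1. In Capan-1, H2BC15 had 11.3, 7.0 and 6.46 FPKM in siB3GNT3, against 3.16, 1.91 and 2.60 FPKM in siNC. Its rise of 1.25 with siB4GALT5 (SE 0.12), 1.19 with siB3GNT3 in AsPC-1 (SE 0.14) and 1.36 in Capan-1 (SE 0.20) had limma adjusted p of 2.83e-05, 9.41e-05 and 0.00216.

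Like H2BC5, H2BC4 and H2BC21 rose more with siB3GNT3 in AsPC-1 than in the other knockdowns, as tested below. H2BC4 had 3.69, 3.84 and 3.00 FPKM in siB4GALT5 and 5.83 and 5.20 FPKM in siB3GNT3, against 2.01, 2.40 and 2.38 FPKM in siNC libraries of AsPC-1. In Capan-1, H2BC4 had 5.80, 5.58 and 7.90 FPKM in siB3GNT3, against 5.18, 4.49 and 4.26 FPKM in siNC. The log2 rises of H2BC4 were 0.46 with siB4GALT5 (SE 0.09, limma adjusted p = 0.00223), 1.00 with siB3GNT3 in AsPC-1 (SE 0.10, adjusted p = 5.79e-05) and 0.39 in Capan-1 (SE 0.13, adjusted p = 0.0469). The Capan-1 call was lost without any 1 of the siNC libraries or siB3GNT3 replicate 1, with limma adjusted p between 0.0557 and 0.152, and also after median-ratio scaling (0.35, adjusted p = 0.06) and with no filter (adjusted p = 0.137).

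H2BC21, a gene of the chromosome 1 cluster, had 4.07, 5.33 and 3.63 FPKM in siB4GALT5 and 8.04 and 7.85 FPKM in siB3GNT3, against 2.99, 3.80 and 2.23 FPKM in siNC libraries of AsPC-1. In Capan-1, H2BC21 had 3.88, 3.08 and 3.65 FPKM in siB3GNT3, against 2.45, 2.25 and 2.49 FPKM in siNC. H2BC21 rose by 1.18 with siB3GNT3 in AsPC-1 (SE 0.17, limma adjusted p = 0.000366) and by 0.41 in Capan-1 (SE 0.09, adjusted p = 0.0111), the Capan-1 call being lost without siNC replicate 2 (adjusted p = 0.0528). Its siB4GALT5 and siNC libraries overlapped; the rise of 0.42 (SE 0.15, limma adjusted p = 0.0362) was lost in 6 of the fits that leave out 1 library, which are those without siNC replicate 1 or 3, siB3GNT3 replicate 1 or 2, or siB4GALT5 replicate 1 or 2, with adjusted p between 0.0538 and 0.132. It was also lost after median-ratio scaling (0.35, adjusted p = 0.0711), with no filter (adjusted p = 0.125) and in a fit of the groups compared alone (adjusted p = 0.054). H2BC9 had 4.34, 2.67 and 2.47 FPKM in siB4GALT5 and 3.83 and 3.61 FPKM in siB3GNT3, against 2.75, 3.77 and 3.49 FPKM in siNC libraries of AsPC-1, where neither knockdown was called (limma adjusted p = 0.68 and 0.561). In Capan-1, H2BC9 had 4.69, 3.36 and 3.24 FPKM in siB3GNT3, against 0.886, 1.15 and 1.96 FPKM in siNC, and rose by 1.04 (SE 0.18, limma adjusted p = 0.00422).

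H3 and H4 genes were less abundant. Of the H3 genes 1 of 4 rose with siB4GALT5, 3 of 4 with siB3GNT3 in AsPC-1 and 5 of 5 in Capan-1. Of the H4 genes 3 of 4, 2 of 4 and 5 of 5 rose in the same comparisons. Over all tested genes 35.2%, 32.5% and 18.7% rose, and H3C4, H4C4 and H4C5 entered the AsPC-1 fit only through knockdown libraries. H3C10 had 4.66, 3.65 and 2.61 FPKM in siB4GALT5 and 5.87 and 6.01 FPKM in siB3GNT3, against 2.04, 1.95 and 3.58 FPKM in siNC libraries of AsPC-1. In Capan-1, H3C10 had 14.9, 11.8 and 12 FPKM in siB3GNT3, against 6.16, 3.01 and 4.92 FPKM in siNC. H3C10 rose by 1.01 with siB3GNT3 in AsPC-1 (SE 0.21, limma adjusted p = 0.00348) and 1.32 in Capan-1 (SE 0.20, adjusted p = 0.00224). With siB4GALT5 it changed by 0.40 (SE 0.19, limma adjusted p = 0.0982), and was called at 0.57 without siB4GALT5 replicate 3 (adjusted p = 0.0123) and at 0.61 without siNC replicate 3 (adjusted p = 0.0158). H3C6 had 2.46, 2.93 and 1.65 FPKM in siB4GALT5 and 2.27 and 2.68 FPKM in siB3GNT3, against 0.733, 1.03 and 0.710 FPKM in siNC libraries of AsPC-1. In Capan-1, H3C6 had 6.07, 6.24 and 7.73 FPKM in siB3GNT3, against 2.57, 3.57 and 3.25 FPKM in siNC. H3C6 rose by 0.86 with siB4GALT5 (SE 0.14), 0.93 with siB3GNT3 in AsPC-1 (SE 0.16) and 0.90 in Capan-1 (SE 0.12), with limma adjusted p of 0.000713, 0.00102 and 0.00147.

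H4C8, the most abundant H4 gene, had 5.09, 5.72 and 4.77 FPKM in siB4GALT5 and 5.74 and 6.95 FPKM in siB3GNT3, against 1.36, 2.00 and 2.04 FPKM in siNC libraries of AsPC-1. In Capan-1, H4C8 had 28.8, 25.8 and 26.5 FPKM in siB3GNT3, against 9.82, 9.30 and 10.3 FPKM in siNC. Every knockdown library lay above all its controls, and H4C8 rose by 1.15 with siB4GALT5 (SE 0.11, limma adjusted p = 3.23e-05), 1.395 with siB3GNT3 in AsPC-1 (SE 0.13, adjusted p = 2.72e-05) and 1.37 in Capan-1 (SE 0.07, adjusted p = 5.72e-05). H4C5 had 2.59, 2.87 and 2.70 FPKM in siB4GALT5 and 1.47 and 4.49 FPKM in siB3GNT3, against 0.369, 0.124 and 0.551 FPKM in siNC libraries of AsPC-1. In Capan-1, H4C5 had 6.36, 4.48 and 7.14 FPKM in siB3GNT3, against 1.43, 2.94 and 2.38 FPKM in siNC. It rose by 1.12 in Capan-1 (SE 0.20, limma adjusted p = 0.00493). In AsPC-1, where only its knockdown libraries brought it past the filter, the log2 fold changes were 1.48 with siB4GALT5 (SE 0.25) and 1.46 with siB3GNT3 (SE 0.27).

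**Figure D3:**
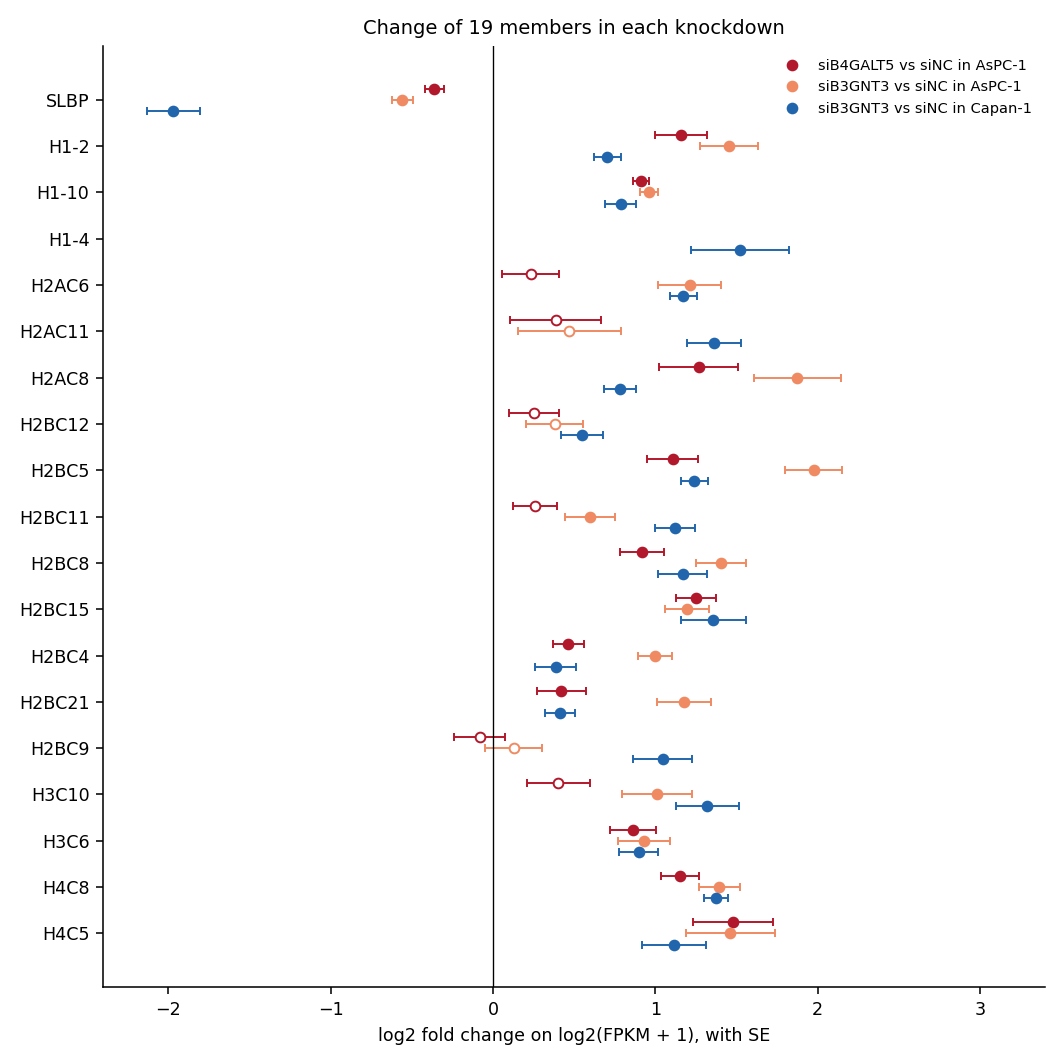
Log2 fold change on log2(FPKM + 1), with its SE, of SLBP and 18 histone genes in each knockdown against siNC of the same line. Filled points were called at an adjusted p under 0.05 over all genes, open points were not, and a gene without a point was below the filter in that line. SLBP lies left of 0 in all 3 comparisons, at -0.36, -0.56 and -1.97, and every filled histone point lies right of 0.

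A further 13 histone genes were called in some comparison at lower levels. In Capan-1, H3C4 rose by 1.71 (SE 0.13, limma adjusted p = 0.000168), with 9.03, 7.12 and 5.81 FPKM in siB3GNT3, against 1.61, 1.53 and 1.42 FPKM in siNC. H2BC17 rose there by 1.58, H3C8 by 1.37 and H2BC7 by 0.47. Genes that the filter admitted only through their knockdown libraries had log2 fold changes of 0.70 (H2AC15) and 0.52 (H4C4) in Capan-1, and, for H2AC20 and H2BC18 in AsPC-1, of 0.65 and 0.65 with siB4GALT5 and 0.76 and 0.67 with siB3GNT3. H4C12, whose reads are shared in full with other copies, had log2 fold changes of -0.07 with siB4GALT5 and -0.15 with siB3GNT3 in AsPC-1, neither called, and rose by 1.17 in Capan-1 (limma adjusted p = 0.0313).

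The 2 AsPC-1 knockdowns were also compared with each other, with siB3GNT3 as the comparator. Of the 27 tested genes, 1 was higher with siB4GALT5 (SLBP) and 6 were lower (H2AC6, H2BC4, H2BC5, H2BC8, H2BC21 and H3C4). Over all tested genes 17.8% were higher and 17.4% lower, or 35.2% in either direction, so the share of members called was below that of all genes. H2AC6 was lower, with a log2 fold change of -0.98 (SE 0.20, limma adjusted p = 0.00451), as were H2BC5 at -0.87 (SE 0.18, adjusted p = 0.00466), H2BC21 at -0.76 (SE 0.17, adjusted p = 0.00755) and H2BC4 at -0.53 (SE 0.10, adjusted p = 0.004). SLBP was higher by 0.20 (SE 0.06, limma adjusted p = 0.0417), but not in 6 of the fits that leave out 1 library, which are those without siNC replicate 1 or 2, siB3GNT3 replicate 1 or 2, or siB4GALT5 replicate 1 or 2, with adjusted p between 0.0528 and 0.226. H2BC8, at -0.49 (limma adjusted p = 0.0348), was lost without siNC replicate 2, siB4GALT5 replicate 1 or either siB3GNT3 library, and H2BC21 without siB3GNT3 replicate 1. SLBP and H2BC8 were also not called with no filter (adjusted p = 0.0653 and 0.122) or in a fit of the groups compared alone (0.0812 and 0.0565), nor SLBP without the intensity trend (0.0596). With the set-apart library kept, limma called 0 members, and 0 had an unadjusted p under 0.05. Without siB3GNT3 replicate 1 the count of called members was 3. Both knockdowns share the siNC libraries, so the likeness of their changes against siNC is not independent.

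The response to siB3GNT3 was compared between lines by an interaction, Capan-1 minus AsPC-1, over 33 genes. SLBP fell more in Capan-1, with a difference of -1.41 (SE 0.20, limma adjusted p = 0.000158). The change was larger in Capan-1 for H2BC9 (0.92, SE 0.28, adjusted p = 0.0211), H3C4 (0.83, SE 0.21, adjusted p = 0.00799), H1-3 (1.45, SE 0.47, adjusted p = 0.0279) and H3C8 (1.33, SE 0.23, adjusted p = 0.000719), by limma. It was smaller in Capan-1 for H1-2 (-0.75, SE 0.22, adjusted p = 0.0167), H2AC8 (-1.09, SE 0.31, adjusted p = 0.0164), H2BC21 (-0.76, SE 0.20, adjusted p = 0.0109), H2BC4 (-0.61, SE 0.17, adjusted p = 0.0155) and H2BC5 (-0.74, SE 0.21, adjusted p = 0.0162). In total 4 were called higher and 6 lower, against 13.8% and 19% of tested genes and 32.8% in either direction, so the share of members called was near that of all genes. H1-3 and H3C8 were under the filter in AsPC-1, where H3C8 was at 0 or 0.0509 FPKM in every library, so the pseudocount limits what could be seen there. Both passed the filter of this fit only with Capan-1 libraries, mainly those of siB3GNT3, so their larger rises are fixed in part by the filter. Leaving out an AsPC-1 siB3GNT3 library ended the calls of H1-2 and H2BC9 (either library), H2AC8 and H2BC4 (replicate 1) and H2BC5 (replicate 2), and H2BC9 was also lost without Capan-1 siNC replicate 1. With no filter the calls of H1-2, H2BC5, H2AC8 and H2BC9 were lost (adjusted p between 0.0532 and 0.0697). With the set-apart library kept, 5 members were called, and H1-2, H2BC4, H2BC5, H2BC21 and H2AC8 were not. For the other 23 genes no difference was called. For H2AC6 it was -0.04 (SE 0.23), for H4C8 -0.02 (SE 0.15) and for H3C6 -0.04 (SE 0.21), by limma.

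**Figure D4:**
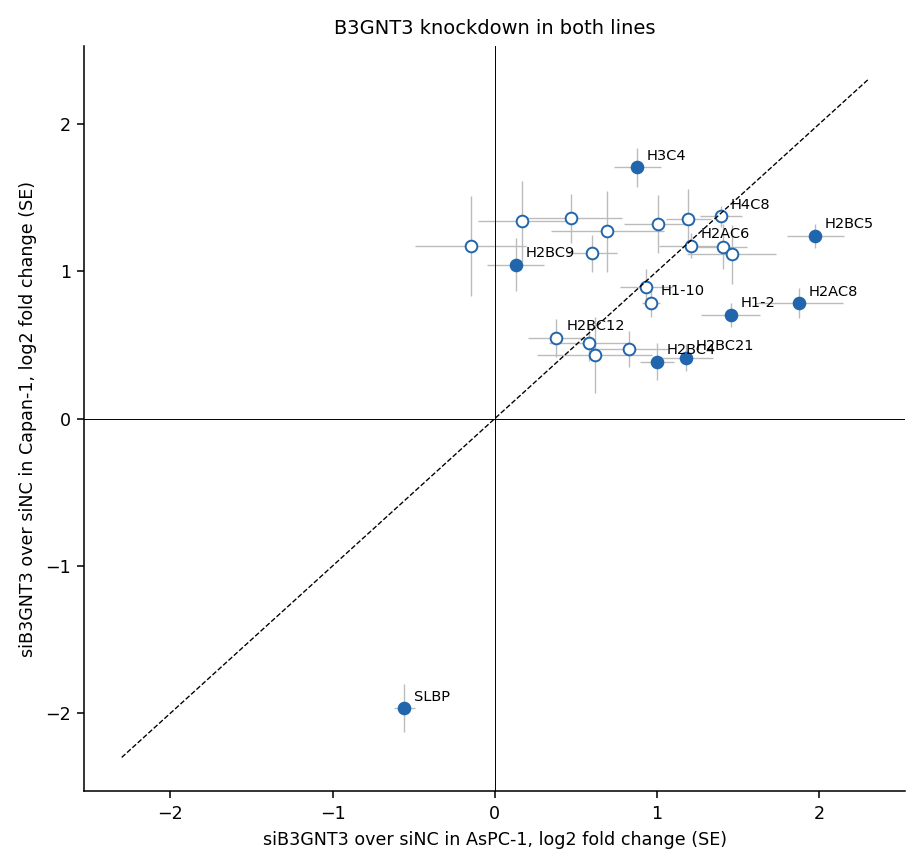
Log2 fold change of siB3GNT3 over siNC in Capan-1 against that in AsPC-1, with SEs, for the 25 genes tested in both lines. Filled points are the 8 genes with a called difference between lines, and the dashed line marks equal change. SLBP lies below 0 on both axes, and the histone genes right of the line include H2BC5, H2AC8, H1-2, H2BC4 and H2BC21.

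The lines differed before any knockdown. Of 33 tested genes, 18 were higher in Capan-1 siNC than in AsPC-1 siNC and 2 were lower, H1-10 and H2BC9. Over all tested genes 43.6% were higher and 34.5% lower, or 78.1% in either direction, so the share of members called was below that of all genes. H3C8 and H4C9 had no AsPC-1 library at 1 FPKM and entered this fit only through Capan-1 libraries, so their outcome is fixed in part by the filter. The same holds for H1-4 and H2BC17, with 2 AsPC-1 libraries at 1 FPKM, and H1-3 and H2AC15, with 1. None of those libraries was siNC, and Capan-1 libraries were needed to pass. The summed core histone signal was 407 ± 25.4 FPKM in Capan-1 siNC and 152 ± 7.64 FPKM in AsPC-1 siNC (SD, n = 3 each), a ratio of 2.67. H1-2 was higher by 2.78 (SE 0.14, limma adjusted p = 3.38e-10), H2BC5 by 2.12 (SE 0.14, adjusted p = 4.91e-09), H4C8 by 1.96 (SE 0.10, adjusted p = 3.49e-10), H2AC6 by 1.80 (SE 0.16, adjusted p = 8.64e-08) and H2BC12 by 1.39 (SE 0.16, adjusted p = 2e-06). H1-10 was lower, with -0.36 (SE 0.08, limma adjusted p = 0.000659), and so was H2BC9, with -0.91 (SE 0.18, adjusted p = 0.000414). SLBP was not called, with 43.8 ± 1.22 FPKM in Capan-1 siNC and 39.6 ± 2.15 FPKM in AsPC-1 siNC (SD, n = 3 each; limma adjusted p = 0.33), but was without Capan-1 siB3GNT3 replicate 3 (adjusted p = 0.0244), in a fit of the siNC libraries alone (0.0148) and after a common sum (0.30, adjusted p = 0.0393). The calls of H3C10 (without Capan-1 siNC replicate 1), H2AC11 (without AsPC-1 siNC replicate 3 or Capan-1 siNC replicate 2) and H2AC8 (without siNC replicate 2 of either line, or with no filter) were lost, and with the set-apart library kept those of H1-10 (adjusted p = 0.0757) and H2AC8 (0.207). The median over all tested genes was 0.09 as deposited and 0.23 after scaling to a common sum, and differences between the lines are relative to that shift.

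Other parts of histone supply were read from lists of genes chosen for their function. The counts below stand beside 35.2% higher and 23% lower over all tested genes with siB4GALT5. These shares were 32.5% and 20.4% with siB3GNT3 in AsPC-1, and 18.7% and 14.2% in Capan-1. A list whose shares are near these says little about its genes, as for the histones listed as replication-independent with siB3GNT3 in AsPC-1. More genes of DNA synthesis, which is coupled to histone mRNA supply in S phase, fell than rose in each knockdown, as deposited and under both other scalings. Of 22, 17 fell and 0 rose with siB4GALT5, 16 fell and 1 rose with siB3GNT3 in AsPC-1, and 9 fell and 2 rose with siB3GNT3 in Capan-1, with median log2 fold changes of -0.38, -0.38 and -0.26. Thymidine kinase TK1 fell by 0.82 with siB4GALT5 and 1.21 with siB3GNT3 in AsPC-1 (limma adjusted p = 4.27e-06 and 1.57e-06). The ribonucleotide reductase subunit RRM2 fell by 1.48 with siB3GNT3 in AsPC-1 (limma adjusted p = 1.11e-06), and the flap endonuclease FEN1 by 0.43 with siB4GALT5, 0.90 with siB3GNT3 in AsPC-1 and 0.76 in Capan-1 (limma adjusted p = 7.91e-05, 3.04e-06 and 0.00128). CDT1, a replication licensing factor, rose in Capan-1 by 0.48 (limma adjusted p = 0.00132).

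Of 20 genes that act in histone mRNA synthesis, processing and decay, 6 rose and 10 fell with siB4GALT5, 4 rose and 8 fell with siB3GNT3 in AsPC-1, and 4 rose and 7 fell in Capan-1. After scaling to a common sum this was 7 and 8, 6 and 4, and 4 and 5, so the excess of falls was reversed with siB3GNT3 in AsPC-1. SNRPF, an Sm protein that the U7 particle shares with spliceosomal particles, fell by 0.66, 0.46 and 0.56 in these comparisons (limma adjusted p = 8.92e-06, 0.000181 and 0.00315). ZNF473, a zinc finger protein associated with the U7 particle, rose by 0.91 with siB4GALT5 and 0.60 with siB3GNT3 in AsPC-1 (limma adjusted p = 6.63e-06 and 0.000208). Of 21 histone chaperones, 2 rose and 9 fell, 3 rose and 6 fell, and 1 rose and 4 fell in the same order, but after a common sum 6 rose and 7 fell, 6 rose and 2 fell, and 2 rose and 4 fell. The H3-H4 chaperone ASF1B fell by 0.51 with siB4GALT5 and 0.68 with siB3GNT3 in AsPC-1 (limma adjusted p = 5.62e-05 and 2.62e-05), and the CAF-1 subunit CHAF1A by 0.44 in Capan-1 (adjusted p = 0.00258).

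A list of histone genes outside the selection rule was taken as replication-independent. Of 12 tested, 6 rose and 2 fell with siB4GALT5, 3 rose and 2 fell with siB3GNT3 in AsPC-1, and 3 rose and 1 fell in Capan-1. The list holds H2AW and H2BU1, and whether each of its genes is independent of replication was not tested. After median-ratio scaling 3 rose and 4 fell with siB3GNT3 in AsPC-1. H2AJ, an H2A variant, rose by 1.06, 1.00 and 0.44 (limma adjusted p = 8.73e-05, 0.000317 and 0.00546), while H2AX, the variant phosphorylated at DNA breaks, fell by 0.58 with siB4GALT5 and 0.47 with siB3GNT3 in AsPC-1 (adjusted p = 3.2e-05 and 0.000286). Of 14 regulators of entry into S phase, 6 rose and 5 fell, 3 rose and 7 fell, and 2 rose and 3 fell, and with siB4GALT5 after median-ratio scaling 5 rose and 6 fell. Cyclin D1 (CCND1) fell by 0.86 with siB4GALT5 and 0.65 with siB3GNT3 in AsPC-1 (limma adjusted p = 2.7e-05 and 0.000384). The inhibitor CDKN1A rose by 0.97 with siB4GALT5 (limma adjusted p = 2.42e-06), and cyclin E1 (CCNE1) fell by 1.14 in Capan-1 (adjusted p = 0.00148).

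The genes whose levels followed SLBP most closely were found by Pearson's r of log2(FPKM + 1) over the 14 libraries after the mean of each line was removed. They were ARF1 (0.991), PDIA6 (0.989), TMA7 (0.986), HPS6 (0.978) and MAPK3 (0.977). ARF1, a GTPase of Golgi transport, averaged 183 FPKM in siB4GALT5, 172 in siB3GNT3 and 222 in siNC of AsPC-1, and 84.1 in siB3GNT3 and 207 in siNC of Capan-1. TMA7 averaged 106, 110 and 160 FPKM in the same AsPC-1 groups, and 25.5 FPKM in siB3GNT3 and 124 FPKM in siNC of Capan-1. These correlations describe groups of libraries that share a line and a treatment, with no p given.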

How the data were processed

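The authors deposited FPKM values in 1 table of genes by libraries, which is all that was used. Per the submitters' processing notes, Bowtie2, RSEM 1.3.1, DESeq2 1.4.5 and GRCh38 were used; the role of each tool and the gene annotation are not given in the sources used here. FPKM were not rescaled. Groups were taken from sample titles, which name Capan-1 where another label of the same samples has a different spelling.

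The test was limma 3.58.1 with an intensity trend, run in R 4.3.3 on log2(FPKM + 1), which understates changes of low genes. Genes with at least 1 FPKM in 3 libraries of the fit were tested, with Benjamini-Hochberg adjustment over all of them and a threshold of 0.05. There was 1 fit for the 8 AsPC-1 libraries, 1 for the 6 Capan-1 libraries, and 1 of all 14 for the interaction and the comparison of lines. Same-numbered libraries did not deviate together, with correlations of -0.057 to 0.06 in AsPC-1 and -0.036 to 0.036 in Capan-1, so numbers were not treated as pairs.

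Members and lists were chosen with earlier results of these data known. Full values are given for SLBP and the members with a group mean of at least 5 FPKM or a call, limited to the 20 with the highest mean, of which 1, a row that meets the selection rule, is not reported here and is left out of all member counts and sums; of each other list, counts and up to 4 genes with the smallest p. H3C4, H1-3 and other lower members were added after their values were seen. Alternatives were pseudocount 0.1, no filter, a filter of 5 FPKM, median-ratio scaling, a common sum, no trend, the replicate block, the set-apart library kept, fits of only the groups compared, and each library left out. Python 3.11.15, numpy 2.4.6, pandas 2.3.3 and matplotlib 3.10.9 were used for sums, sequences and plots.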

Additional observations from a re-analysis of the deposited data

Results flagged for a closer look

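The response to siB3GNT3 differed between Capan-1 and AsPC-1 for 10 genes by the interaction in limma, given here as Capan-1 minus AsPC-1 on the log2 scale. That is 10 of 33, near the 32.8% of all tested genes called for this difference. The difference was more negative in Capan-1 for SLBP (-1.41), H2AC8 (-1.09), H2BC21 (-0.76), H1-2 (-0.75), H2BC5 (-0.74) and H2BC4 (-0.61). For SLBP this was a larger fall, and for the other 5 a smaller rise. It was more positive in Capan-1 for H1-3 (1.45), H3C8 (1.33), H2BC9 (0.92) and H3C4 (0.83), each a larger rise. H1-3 and H3C8 were below 1 FPKM in nearly every AsPC-1 library. They passed the filter only with Capan-1 libraries, mainly those of siB3GNT3, so their larger rises are fixed in part by the filter. The AsPC-1 side of each difference rests on 2 siB3GNT3 libraries, since the library labelled replicate 3 was set apart. Among the genes given in full, leaving out 1 library ended the calls of H1-2, H2BC9, H2AC8, H2BC4 and H2BC5.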

How the results depend on the processing

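FPKM without counts give no interval for depth, and the reads behind a value are unknown. With a filter of 5 FPKM, which tests fewer members, 9 were called with siB4GALT5 (15 as reported), 11 with siB3GNT3 in AsPC-1 (19) and 15 in Capan-1 (30). Without a filter the interaction gave 6 (10). With the library labelled AsPC-1 siB3GNT3 replicate 3 kept in its group, the counts were 7 with siB4GALT5, 0 with siB3GNT3 in AsPC-1 (13 at an unadjusted p under 0.05), 0 between the knockdowns (0 unadjusted; 7 as reported) and 5 for the interaction, and the AsPC-1 siB3GNT3 core sum was 233.6 FPKM (276 as reported). Over all genes limma then called 0 genes with siB3GNT3 in AsPC-1 (5697 as reported; 3011 at an unadjusted p under 0.05), 1716 between the knockdowns (3789) and 1204 for the interaction (4009). That sum was 264 FPKM after median-ratio scaling, and the AsPC-1 siNC sum 142 FPKM after a common sum (152); the cause was not tested.

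Leaving out 1 library gave 12 to 22 members with siB4GALT5, 16 to 23 with siB3GNT3 in AsPC-1, 3 to 8 between the knockdowns, 25 to 28 in Capan-1, 8 to 14 for the interaction and 18 to 22 between the lines. The core sum ranged over 201 to 249 FPKM in siB4GALT5, 268 to 283 FPKM in siB3GNT3 and 149 to 157 FPKM in siNC of AsPC-1, and over 706 to 763 FPKM in siB3GNT3 and 393 to 416 FPKM in siNC of Capan-1. Over all genes, 2134 and 2190 were called between the knockdowns without siB3GNT3 replicate 1 or 2, and in Capan-1 (3786) 2069, 2083 and 2112 without siNC replicate 1, 2 or 3 and 5715 without siB3GNT3 replicate 3. H2BC9 with siB4GALT5 (-0.08, not called) ranged from -0.27 to 0.037 with 1 library left out, the positive value being that without siB4GALT5 replicate 3 (limma adjusted p = 0.836). SLBP between the knockdowns (0.20) turned to -0.0017 with the set-apart library kept (limma adjusted p = 0.995). Among the alternatives that keep the same libraries, no other of the 19 genes changed direction in the comparisons reported for it.

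With the replicate number as a block, member counts were 17 with siB4GALT5, 18 with siB3GNT3 in AsPC-1, 6 between the knockdowns, 29 in Capan-1, 11 for the interaction and 19 between the lines, each within 1.5 times that without the block. Calls were gained for H2AC6 with siB4GALT5 (adjusted p = 0.0168) and H2BC15 between the lines, and not made for SLBP between the knockdowns, H2BC4 in Capan-1, H2AC8 in the interaction, and H1-10, H2AC11 and H2AC8 between the lines.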
